A study of Mus musculus with 6 samples.

Results

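Cell surface proteins that carry a CD number were originally catalogued on leukocytes, and many mouse genes took their symbol from that number. The genes described here are those whose symbol on the array platform is Cd followed by digits and optional lower-case letters or digits, with Cd44, Cd200, Cd79a, Cd79b and the genes of CD2-binding proteins left out. This gave 83 genes with 143 probe sets, of 18193 genes named on the platform. The mice, aged 6 to 8 weeks, carried Grem1;TdTomato on a C57BL/6J background and all received oral tamoxifen. Marrow of each of 3 mice was sorted into a Grem1+ fraction and a Grem1- fraction. The Grem1- cells were non-recombined and negative for CD45, CD31 and Ter-119, a gate that the labels state for that fraction alone. The labels do not name the recombinase, and Grem1- means only that the reporter had not recombined in that cell.

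A CD number says how an antigen was catalogued, not which cell carries it. Some CD antigens mark haematopoietic cells, among them the SLAM family receptors, the CD300 and Siglec receptors of myeloid cells and the invariant chains of lymphocyte receptors. Others are found on most nucleated cells, such as the tetraspanins that organise adhesion receptors in the membrane and the proteins that protect a cell from complement. A few are typical of mesenchymal and perivascular cells. In marrow sorting, leukocyte antigens are used to exclude blood cells and the stromal kind to find skeletal progenitors and niche cells. The genes were therefore grouped by textbook role into stromal and mesenchymal antigens (3 genes), widely expressed tetraspanins (4), other widely expressed antigens (12), stem cell and endothelial antigens (4), pan-leukocyte antigens (6), myeloid antigens (23), B cell and antigen presentation antigens (12) and T and NK cell antigens (18). Cd3eap fits the naming rule but encodes a nuclear subunit of RNA polymerase I, and was put in no group. Cd5l, Cd68 and Cd247 encode proteins that are secreted, mainly lysosomal and mainly intracellular, respectively.

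Expression values are log2 GCRMA values, a scale on which a difference of 1 is a doubling. Values below log2 4 are called dim, a chosen limit and not a measured detection limit. Array medians ran from 3.74 to 3.81. Chondrocyte markers were bright in Grem1+, with 7 of 8 higher and 0 lower, and their log2 summed level went from between 11.53 and 12.10 in Grem1- to between 14.13 and 14.61. Of 7 osteoblast and stroma markers, 3 were higher and 0 lower, with a log2 summed level of 11.39 to 11.93 in Grem1- and 12.27 to 13.03 in Grem1+. Both lists moved in the direction of Cd109, the only called gene of the stromal and mesenchymal group. Their part in its values, or in any other result described here, was not tested. Grem1 itself was at 3.69, 3.75 and 3.70 in Grem1- and 4.49, 4.14 and 8.61 in Grem1+, clear only in mouse 3. On its brightest probe set Ptprc, the gene of CD45, stood at 12.13, 11.78 and 12.37 on the Grem1- arrays despite the CD45 gate. The Grem1+ arrays of mice 1, 2 and 3 read 7.29, 9.61 and 10.56 there. That difference of -2.94 was not called (limma adjusted p = 0.0609). Another Ptprc probe set read 9.38, 8.37 and 8.81 in Grem1-. It was dim on every Grem1+ array, at 2.53, 3.3 and 3.71, a difference of -5.67. Of 11 granulocyte and macrophage markers on the platform, 10 were tested and 6 were lower, and their log2 summed level was 14.74 to 14.79 in Grem1- and 12.07, 13.37 and 13.75 in Grem1+. The B lineage list summed to 10.39 to 10.66 in Grem1- and 6.41 to 7.72 in Grem1+, where 4 of its 7 genes (Vpreb1, Vpreb3, Pax5 and Blnk) were dim on every array. Erythroid markers summed to 11.35 to 11.50 and 6.13 to 7.12, and Hemgn, Hba-a1, Alas2 and Epor were dim on all Grem1+ arrays. The granulocyte and macrophage, B lineage and erythroid sums moved with the leukocyte antigens described here, and their part in each result was not tested. In such bulk samples, fewer cells of a type and less RNA per cell cannot be told apart. The labels record male animals, but an Xist probe set was at 11.04 and 10.60 on the Grem1- and Grem1+ arrays of mouse 3, while the other 4 arrays reached 2.99 at most.

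Among the tested leukocyte antigens 13 of 30 were lower in the Grem1+ fraction and 0 higher. The 3 genes that were higher, Cd109, Cd151 and Cd9, had been placed with the stromal antigens and the tetraspanins. The groups were drawn up with earlier results of these data known. Cd151 differed by -0.37 on a probe set specific to it by name. A probe set was tested when it was above log2 4 on at least 3 of 6 arrays, and the brightest passing probe set stood for its gene. Of the 83 genes 50 were tested. With limma, the mouse as a block and Benjamini-Hochberg adjusted p-values over all 10151 tested genes, 3 were higher and 15 lower at a threshold of 0.05. Over all tested genes 20.2% passed, 11.7% as higher and 8.51% as lower, against 6% and 30% of the 50. The median difference, Grem1+ minus Grem1-, was -1.38 over the 50 and 0.04 over all tested genes. The 30 tested genes of the 4 leukocyte groups had a median difference of -2.07 and mouse medians of -2.11, -2.87 and -1.74. With all 59 genes of these groups and no filter on dim values the median was -0.44. Of the 17 of them that did not pass, 15 had a difference below 0. In the 4 other groups, 3 of 19 tested genes were higher and 2 lower, with a median of 0.37. These counts and medians cover tested genes alone, and in 5 of the 50, against 6.03% of all tested genes, the lower fraction was dim on every array. Leaving out any mouse with the block kept gave 0 calls in either direction by limma. In those fits 25, 24 and 25 of the 50 had an unadjusted limma p under 0.05 without mouse 1, 2 and 3. The matching share of all tested genes was not computed, so these counts do not set the 50 apart. With dim probe sets let in, the 15 lower genes of 50 became 7 of 83. All 7 were in the leukocyte groups, 7 of 59 in place of 13 of 30. The share of all genes lower in that fit was not computed. Lost were Cd160, Cd177, Cd300lf, Cd33, Cd37, Cd55, Cd72 and Cd93, with limma adjusted p-values from 0.0508 for Cd33 to 0.0852 for Cd55.

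**Figure D1:**
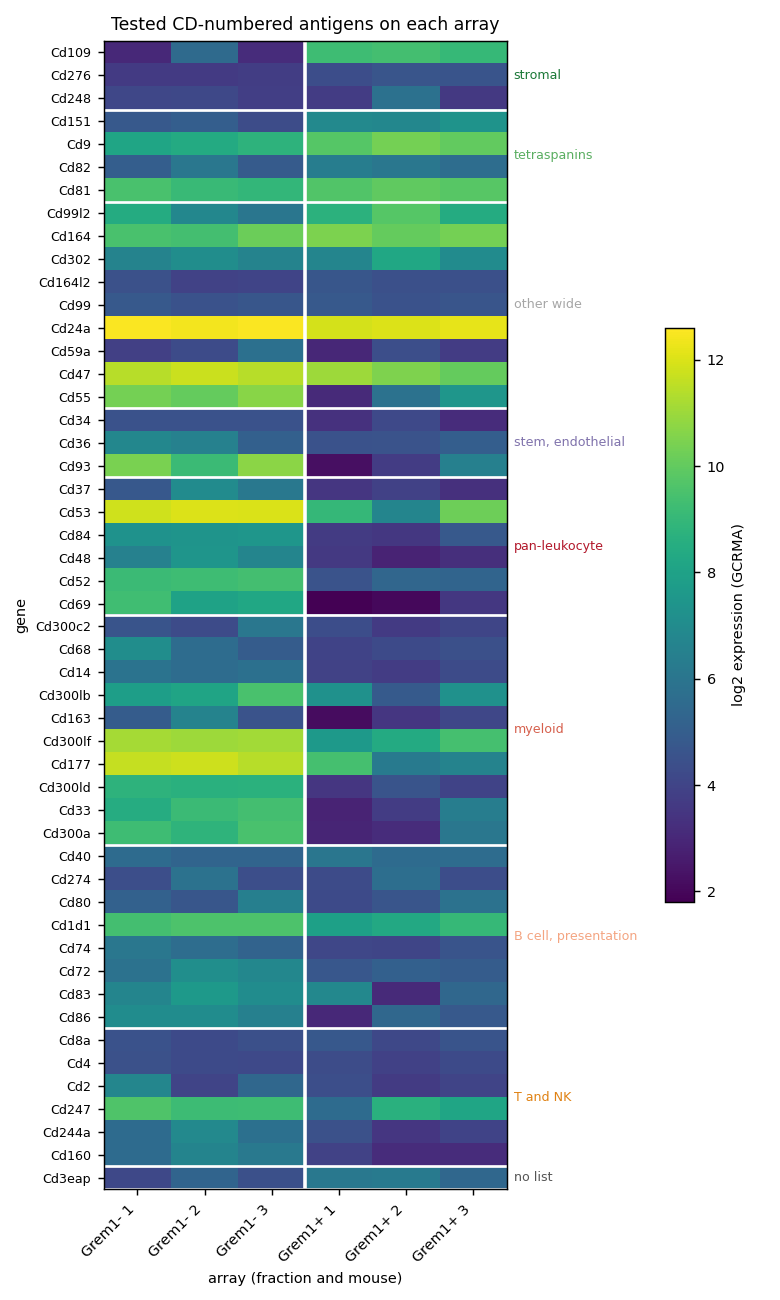
Heat map of log2 expression (GCRMA, colour scale) of the 50 tested genes in rows, grouped by role, on the 3 Grem1- and 3 Grem1+ arrays in columns. The pan-leukocyte and myeloid rows darken from left to right, whereas Cd109, Cd151 and Cd9 brighten. Probe sets differ in response, so colours are comparable along a row and not down a column.

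**Figure D2:**
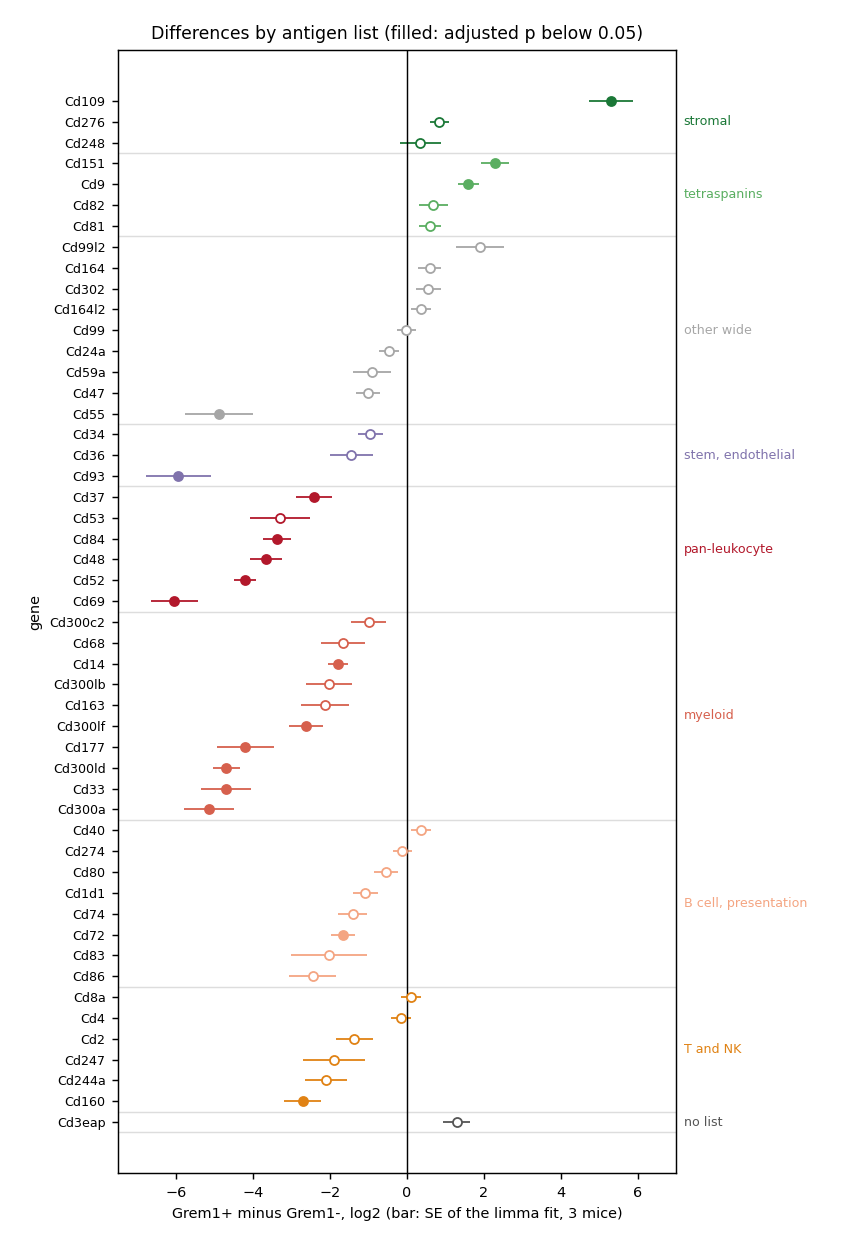
Difference between Grem1+ and Grem1- (log2, x axis) for each tested gene (y axis), coloured by group, with the SE of the limma fit over 3 mice as bars. Filled points passed the adjusted threshold, 3 to the right of 0 and 15 to the left.

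Among the stromal and mesenchymal antigens only Cd109 passed. Cd109 encodes a GPI-anchored protein of the alpha-2-macroglobulin family that acts as a TGF-beta co-receptor. Its values were 9.25, 9.37 and 9.03 on the Grem1+ arrays of mice 1, 2 and 3, and 3.03, 5.54 and 3.18 on their Grem1- arrays. All 3 Grem1+ arrays lay far above the Grem1- ones, and the widest spread was in Grem1-, where only mouse 2 rose above log2 4. The difference was 5.30 (SE 0.57, limma adjusted p = 0.0146), or 4.71 with dim values set to 4, and its other probe set differed by 6.20. Cd276, which encodes the B7 family member B7-H3 of mesenchymal and epithelial cells, was at 4.36, 4.63 and 4.61 in Grem1+ and 3.63, 3.65 and 3.76 in Grem1-. The fractions did not overlap, but both stood close to the dim limit. The difference was 0.85 (SE 0.25, limma adjusted p = 0.0924) and passed only without the mouse block (adjusted p = 0.0437) or with a variance trend (0.0356). Cd248 encodes endosialin, a marker of fibroblasts and pericytes. On the Grem1+ arrays it was at 3.70, 5.82 and 3.59, and on the Grem1- arrays at 4.12, 4.13 and 3.82. Only mouse 2 gave a clear Cd248 value in Grem1+, and the difference of 0.35 (95% interval -1.11 to 1.81) was -0.32 with that mouse left out.

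All 4 tetraspanins of the widely expressed group had positive differences, and Cd151 and Cd9 passed. Cd151 binds laminin-receptor integrins and Cd9 partners integrins and other membrane proteins. Cd151 was at 6.87, 6.80 and 7.35 in Grem1+ and 4.81, 5.03 and 4.32 in Grem1-. The lowest Grem1+ array was well above the highest Grem1- array. The value of 2.29 (SE 0.36, limma adjusted p = 0.0259) rests on a probe set that other transcripts may share. A second such probe set differed by 2.85, but the third, specific to Cd151 by its name, read 5.41, 5.05 and 5.75 in Grem1+ and 6.04, 5.56 and 5.73 in Grem1-, a difference of -0.37. Cd9 has a single passing probe set and was at 9.74, 10.35 and 10.02 in Grem1+ and 8.14, 8.42 and 8.77 in Grem1-. The fractions were separate, and the difference was 1.60 (SE 0.28, limma adjusted p = 0.0320). Cd81, which is part of the B cell co-receptor and also present on most other cells, went from 9.50, 9.11 and 8.96 to 9.66, 9.96 and 9.79. That is 0.61 with a 95% interval of -0.20 to 1.42. Cd82 differed by 0.69 (95% interval -0.33 to 1.72), with overlapping fractions.

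The other widely expressed antigens went both ways, and 1 of the 9 tested was called. This was Cd55, decay-accelerating factor, which limits complement activation on the cell surface. Cd55 stood at 10.33, 10.04 and 10.69 in Grem1- and at 3.07, 5.87 and 7.47 in Grem1+. Every Grem1+ array was lower, yet they were spread over more than 4 log2 units, with mouse 1 dim and mouse 3 highest. The difference was -4.88 (SE 0.89, limma adjusted p = 0.0333), and the other passing probe sets differed by -2.13 and -3.43. Cd59a, another complement inhibitor, differed by -0.91 (SE 0.50) and did not pass. Cd47, the surface signal that restrains phagocytes, was at 11.46, 11.74 and 11.42 in Grem1- and 11.02, 10.52 and 10.04 in Grem1+. The fractions did not overlap, but the difference of -1.01 (SE 0.32) missed the threshold (limma adjusted p = 0.106). The remaining 4 passing probe sets of Cd47 differed by -1.26 to -2.35, and the mean of all 5 passed (-1.65, limma adjusted p = 0.0155). Cd24a, the heat-stable antigen of precursor B cells, erythroid cells and neutrophils, was bright in both fractions. It read 12.55, 12.42 and 12.53 in Grem1- against 11.92, 12.02 and 12.18 in Grem1+, a difference of -0.46 (95% interval -1.17 to 0.24). Cd99l2, an adhesion protein used by migrating leukocytes and by endothelium, had the most positive difference of this group, 1.90 (SE 0.62, limma adjusted p = 0.111). Another of its probe sets differed by 3.08 and passed when chosen as the most variable (limma adjusted p = 0.0264). Cd99 differed by -0.01 (95% interval -0.70 to 0.68) and Cd302, a C-type lectin, by 0.56, neither past the threshold. Cd164, an endolysosomal sialomucin, differed by 0.60 on its brightest probe set but by -1.68 on its other passing one and by -0.54 with their mean, none past the threshold, so its direction depends on the probe set.

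Of the stem cell and endothelial antigens, Cd93 passed. Cd93 encodes a C-type lectin-like receptor of endothelium, myeloid cells and early B lineage cells. Grem1- arrays read 10.42, 9.17 and 10.74, and Grem1+ arrays 2.25, 3.73 and 6.52, again with mouse 1 lowest and mouse 3 highest. The difference was -5.94 (SE 0.85, limma adjusted p = 0.0220), or -5.27 with dim values set to 4. Its other passing probe sets differed by -2.37 to -4.25, and without probe sets that transcripts share the call was lost (adjusted p = 0.0670). Cd34, a sialomucin of haematopoietic progenitors, endothelium and some fibroblasts, was at 4.50, 4.52 and 4.50 in Grem1- and 3.35, 4.17 and 3.15 in Grem1+, a difference of -0.95 (SE 0.33, limma adjusted p = 0.124). The Grem1- values of Cd34 were close together and only just above the dim limit. Cd36, a fatty acid and scavenger receptor, had a difference of -1.44 (SE 0.55), not past the threshold. Of 6 other endothelial genes, Cdh5, Kdr, Tek, Emcn and Tie1 were dim on every Grem1+ array and 4 of the 6 were dim on every Grem1- array. The log2 summed level of these 6 was 6.51, 7.99 and 6.22 in Grem1- and 5.88 to 5.95 in Grem1+, and its part in the values of Cd93 was not tested. Pecam1, the gene of the gate antigen CD31, was at 5.25, 4.23 and 4.91 in Grem1- and dim in Grem1+, at 3.71, 3.39 and 2.81. The Grem1+ values of Pecam1 thus lay below its Grem1- values, as for Cd93 and Cd34, but Pecam1 was not called. Its Grem1- values stood above the dim limit despite the gate, and its part in the values of Cd93 and Cd34 was not tested either.

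Of the 6 pan-leukocyte antigens, all tested, 5 were lower. Cd69, an early activation antigen of lymphocytes that other leukocytes also carry, was at 9.27, 8.01 and 8.23 in Grem1- and dim, at 1.82, 2.03 and 3.55, on every Grem1+ array. Set against the dim limit it was at least 22.7-fold lower in Grem1+ (limma adjusted p = 0.0134). Cd52, a short GPI-anchored glycopeptide of lymphocytes and monocytes, had closely matched values within each fraction, 9.17, 9.25 and 9.38 against 4.56, 5.37 and 5.27. No Grem1+ array was dim for Cd52, and the difference was -4.20 (SE 0.29, limma adjusted p = 0.00906). Cd48 and Cd84 are SLAM family receptors, a family whose members bind other members or their own kind between blood cells. Cd48 went from 6.55, 7.45 and 6.71 to 3.59, 2.86 and 3.27, all dim, and was at least 7.49-fold lower (limma adjusted p = 0.0158). Cd84 went from 7.30, 7.40 and 7.46 to 3.67, 3.56 and 4.81, a difference of -3.37 (SE 0.36, limma adjusted p = 0.0139). Cd37 and Cd53 are tetraspanins restricted to leukocytes. Cd37 was at 4.78, 7.01 and 6.13 in Grem1- and dim on all Grem1+ arrays, at least 3.92-fold lower (limma adjusted p = 0.0390), but the call was lost with dim values set to 4 (adjusted p = 0.0748). Cd53 was bright on the Grem1- arrays, at 11.82, 12.02 and 11.97, and still at 6.71 in mouse 2 and 10.21 in mouse 3 in Grem1+, with mouse 1 between them (mean 8.64 ± 1.78, SD, n = 3). No Grem1+ array of Cd53 was dim, and -3.29 (SE 0.78) fell short of the threshold (limma adjusted p = 0.0568). A second Cd53 probe set differed by -4.57, and passed when chosen (adjusted p = 0.0121).

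**Figure D3:**
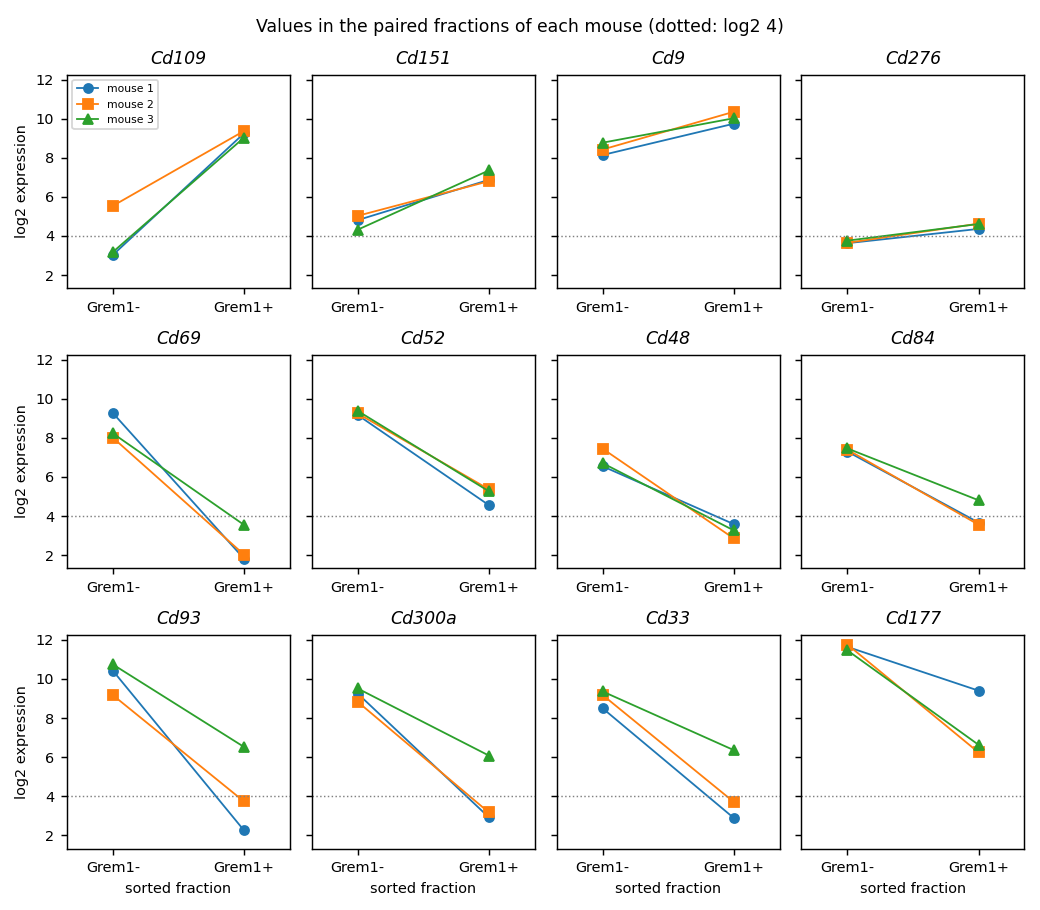
Log2 expression (y axis) of 12 genes in the Grem1- and Grem1+ fractions (x axis), with a line for each of the 3 mice and the dim limit of log2 4 dotted. Lines of Cd109, Cd151, Cd9 and Cd276 run upward, those of Cd69, Cd52, Cd48 and Cd84 run downward with an SD of 0.37 to 0.94 in Grem1+, and those of Cd93, Cd300a, Cd33 and Cd177 fan out to an SD of 1.72 to 2.17 there, with mouse 3 highest for the first 3 and mouse 1 for Cd177.

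Myeloid antigens were lower in 6 of 10 tested genes and higher in 0, with a median difference of -2.38, or -0.43 over all 23 with no filter. The CD300 genes encode immunoglobulin-type receptors that pair inhibitory with activating members, and those described here lie in 1 stretch of chromosome 11 in the RefSeq table (assembly GRCm38.p6). Cd300a, an inhibitory receptor, was at 9.25, 8.83 and 9.51 in Grem1- and 2.92, 3.17 and 6.08 in Grem1+. Mice 1 and 2 were dim and mouse 3 was not, and the difference was -5.14 (SE 0.66, limma adjusted p = 0.0181). Its second probe set, at most 6.05 on any array, differed by -0.80. Cd300ld was at 8.80, 8.66 and 8.70 against 3.50, 4.59 and 3.99, a difference of -4.69 (SE 0.35, limma adjusted p = 0.00948). Cd300lf, an inhibitory member, kept values far above the dim limit in Grem1+, at 7.62, 8.42 and 9.40 against 11.16, 11.03 and 11.12. This was a difference of -2.63 (SE 0.44, limma adjusted p = 0.0288). Cd300lb and Cd300c2 from the same stretch stood at -2.02 (SE 0.59) and -0.99 (SE 0.45), neither past the threshold.

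Cd33, a Siglec that binds sialic acids on myeloid cells, went from 8.50, 9.18 and 9.36 to 2.89, 3.71 and 6.36. Mouse 3 was again the only Grem1+ array above log2 4, and the difference was -4.70 (SE 0.64, limma adjusted p = 0.0202). Cd177, a GPI-anchored antigen of neutrophils, was at 11.64, 11.76 and 11.46 in Grem1- and 9.40, 6.24 and 6.63 in Grem1+. Here mouse 1 was highest, unlike for Cd33, and the difference was -4.20 (SE 0.74, limma adjusted p = 0.0316). Cd14, the co-receptor for lipopolysaccharide, differed by -1.79 (SE 0.27, limma adjusted p = 0.0228), from 5.90, 5.62 and 5.78 to 3.95, 3.72 and 4.25. Cd163, the haemoglobin scavenger receptor of macrophages, and Cd68, a lysosomal glycoprotein of macrophages, differed by -2.13 (SE 0.63) and -1.66 (SE 0.58) without passing. All 7 genes of the Cd209 lectin family were dim on every array, with a highest value of 3.79.

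Over the 15 lower genes, the spread between mice was wider in Grem1+ for 11. Their SD ranged from 0.18 to 2.23 in Grem1+ (median 0.69, n = 3) and from 0.07 to 1.12 in Grem1- (median 0.35, n = 3), while 63.1% of all lower genes had the larger SD in Grem1+. The highest Grem1+ value belonged to mouse 3 for 8 of the 15, to mouse 2 for 4 and to mouse 1 for 3. Among all lower genes mouse 3 was highest for 48.1%. Ptprc and the summed granulocyte and macrophage markers were also highest in the Grem1+ array of mouse 3, and their part in this order was not tested. With no mouse block, 12 genes were lower without mouse 3, 11 without mouse 1 and 6 without mouse 2. Of the 18 called genes, 7 passed in each of these 3 fits, namely Cd300ld, Cd48, Cd52, Cd69 and Cd84 among the lower and Cd109 and Cd151 among the higher.

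Of the B cell and antigen presentation antigens, 1 of 8 tested was lower. Cd72, an inhibitory lectin-like receptor of B cells, was at 5.89, 7.13 and 6.78 in Grem1- and 4.75, 5.11 and 4.95 in Grem1+. The fractions did not overlap, and the difference was -1.66 (SE 0.31, limma adjusted p = 0.0354), lost with a variance trend in limma (adjusted p = 0.0508). Cd74, the invariant chain of MHC class II, differed by -1.41 (SE 0.38), Cd86, a co-stimulatory ligand, by -2.45 (SE 0.61), and Cd1d1, which presents lipids, by -1.08 (SE 0.32). All 3 had adjusted p-values between 0.05 and 0.1. A second passing probe set differed by only -0.66 for Cd86 and -0.41 for Cd1d1. Cd80, which like Cd86 binds CD28, differed by -0.53 on its brightest probe set but by -3.50 on its most variable, which passed when chosen (limma adjusted p = 0.0167). Cd40, a TNF receptor family member, was at 6.02, 5.58 and 5.62 in Grem1+ and 5.57, 5.29 and 5.26 in Grem1-, a difference of 0.37 (95% interval -0.33 to 1.06), with -0.08 on its second passing probe set. Cd274, which encodes the checkpoint ligand PD-L1, was at 4.25, 5.69 and 4.35 in Grem1+ and 4.41, 5.85 and 4.40 in Grem1-. Its value followed the mouse and not the fraction, with mouse 2 highest in both, and the difference was -0.12 (95% interval -0.81 to 0.56).

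Most T and NK cell antigens were too dim to test, and 1 of 6 tested genes was lower. The log2 summed level of 5 other T and NK lineage markers was 6.30, 7.82 and 9.52 in Grem1- and 5.99, 5.90 and 6.71 in Grem1+, where Ncr1, Gzma and Nkg7 were dim on every array. Cd160, an immunoglobulin-type receptor of NK cells and T cells, went from 5.56, 6.69 and 6.16 to values dim on every Grem1+ array, at least 4.40-fold lower (limma adjusted p = 0.0300). That call rests on its only passing probe set. The other Cd160 probe sets were dim on all arrays and differed by -0.08 to 0.02. Cd244a, the SLAM family receptor of Cd48, lies with Cd48 and Cd84 in the SLAM gene group of chromosome 1. It differed by -2.10 (SE 0.54, limma adjusted p = 0.0676). Cd247, the zeta chain through which T cell and NK receptors signal, was bright in Grem1- on its only passing probe set. This probe set read 9.64, 9.19 and 9.24 in Grem1- and 5.58, 8.66 and 8.16 in Grem1+. Mouse 1 alone was far lower, and -1.89 (SE 0.81) was not past the threshold. The other Cd247 probe sets were dim on every array, at 3.68 at most. The genes of the CD3 chains with which the zeta chain forms the T cell receptor complex, Cd3d, Cd3e and Cd3g, never passed the filter. Their highest values on any array were 5.14, 4.11 and 3.19. Cd4 and Cd8a, the T cell co-receptors, lay between 3.88 and 4.76 on all arrays on their only passing probe sets and differed by -0.15 and 0.11. Their other probe sets were dim on every array, at 3.81 at most.

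The 33 untested genes included 22 with no value above log2 4 on any array, among them Cd5 (highest value 3.26), a T cell scavenger-type receptor, Cd22 (2.78), a Siglec of B cells, and Cd207 (2.99), the langerin of Langerhans cells. The other 11 were above it on at most 2 arrays. Cd27, a TNF receptor family member of lymphocytes and progenitors, reached 6.30 and 8.36 on the Grem1- arrays of mice 1 and 2 and was dim on the rest. Cd320, the receptor for transcobalamin-bound vitamin B12, reached 5.40 in the Grem1+ fraction of mouse 2. Cd3eap, the polymerase subunit, differed by 1.30 (SE 0.35, limma adjusted p = 0.0747).

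CD antigens whose genes have other symbols gave the same comparison from separate genes, in lists drawn up with earlier results of these data known. Of 12 tested stromal antigens 6 were higher and 1 lower, with a median difference of 1.27. Nt5e and Itgb1 were among the higher, but each had another passing probe set that hardly differed (-0.0 and -0.02). Cspg4, the NG2 proteoglycan, went from 4.64, 6.26 and 5.96 to 11.23, 11.39 and 10.43, a difference of 5.40. Its other passing probe set differed by 2.36. Icam1, an adhesion ligand of leukocyte integrins, differed by 3.07 (SE 0.41) and Itga5, a fibronectin receptor subunit, by 3.73 (SE 0.44), while Alcam, an adhesion molecule, differed by -3.09 (SE 0.55). The weakest passing probe set differed by 1.32 for Itga5 and -1.73 for Alcam. Pdgfrb, a growth factor receptor of pericytes, differed by 2.91 (SE 0.64) and lay just inside the threshold, but its other passing probe set differed by 0.19. Vcam1, an adhesion molecule of marrow stroma, differed by -2.87 (SE 0.74) without passing. Of 17 tested leukocyte antigens 12 were lower and 0 higher, with a median of -3.19. Spn, the leukocyte sialomucin CD43, went from 12.08, 11.95 and 11.93 to 7.66, 6.18 and 8.88. Bst1, an ectoenzyme of myeloid cells and marrow stroma, differed by -4.62 (SE 0.52), Itga4, an integrin subunit that binds VCAM-1, by -4.30 (SE 0.85) and Fcgr2b, the inhibitory IgG receptor, by -4.14 (SE 0.36). The weakest passing probe sets of Spn, Bst1, Itga4 and Fcgr2b differed by -1.34, -1.93, -2.12 and -1.97.

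The start-site windows of these genes are shown because several leukocyte antigens, called lower or not, share a short sequence there. In a RefSeq table of promoters (GRCm38.p6), each holding 250 bases before and 50 after a start, 58 of the 83 genes matched, with 66 windows. The searched motif was GAGGAAGT on either strand, the kind bound by ETS factors such as PU.1 of myeloid and B cells. It was present in 3.20% of all 32851 windows, in 10.6% of the 66, and in 4 of the 12 windows of lower genes, those of Cd37, Cd72, Cd300ld and Cd300lf. The other 3 windows with it belong to Cd5, which was not tested, and to Cd53 and Cd82, which were not called. By group, it was in 6 of 42 windows (14.3%) of the leukocyte groups and in 1 of 23 (4.35%) of the other groups. Its share over all lower genes was not computed. The 12 windows of lower genes belong to 11 of the 15, and Cd14, Cd52, Cd69 and Cd93 had none. TATAAA on the gene strand, which can share at most 1 base with the first motif, was in 10.6% of the 66 and 8.32% of all windows. A match describes these letters and shows neither binding nor a cause.

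The 150 bases before the start are given 5′ to 3′ on the gene strand, with the motif or its reverse complement ACTTCCTC in capitals for 3 lower genes. The positions are chr4:43454627-43454776 (minus strand) for Cd72, chr7:45238840-45238989 (minus) for Cd37 and chr11:114989887-114990036 (minus) for Cd300ld. In Cd72 and Cd37 the motif lies close to the start, and in Cd300ld at the far end.
Cd72: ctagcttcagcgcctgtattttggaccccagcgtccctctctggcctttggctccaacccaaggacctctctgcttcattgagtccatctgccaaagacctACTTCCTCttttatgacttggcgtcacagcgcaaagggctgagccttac
Cd37: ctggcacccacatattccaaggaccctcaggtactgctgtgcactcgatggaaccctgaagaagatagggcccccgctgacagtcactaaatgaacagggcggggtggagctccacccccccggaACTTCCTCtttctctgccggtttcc
Cd300ld: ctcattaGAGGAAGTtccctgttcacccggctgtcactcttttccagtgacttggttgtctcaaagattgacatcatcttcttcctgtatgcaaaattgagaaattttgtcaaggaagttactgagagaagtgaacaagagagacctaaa

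For the higher genes Cd9 (chr6:125494761-125494910, minus strand) and Cd151 (chr7:141467212-141467361, plus strand, the first of its 2 starts) capitals mark CpG dinucleotides, of which these windows hold 10 and 11. The same windows of Cd72, Cd37 and Cd300ld hold 4, 5 and 1. The windows of Cd9 and Cd151 hold no GAGGAAGT on either strand. Cd109, the remaining higher gene, had no window.
Cd9: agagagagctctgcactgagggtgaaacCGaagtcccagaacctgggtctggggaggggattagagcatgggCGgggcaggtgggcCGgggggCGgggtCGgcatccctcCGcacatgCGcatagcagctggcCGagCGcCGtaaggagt
Cd151: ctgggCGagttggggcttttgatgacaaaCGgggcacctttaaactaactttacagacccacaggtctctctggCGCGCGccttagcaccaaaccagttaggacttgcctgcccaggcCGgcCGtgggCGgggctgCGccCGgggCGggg

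CpG content is given by group as a description. The ratio of observed to expected CpG in the full windows had a median of 0.20 over 42 windows of the leukocyte groups and 0.55 over 23 windows of the other groups. Over all windows it was 0.38, and over windows of all tested genes 0.75. Cd9 stood at 0.69, Cd151 at 0.65 for its first start and 0.17 for its second, and Cd276, which did not pass, at 0.85. Among lower genes with a window the ratio ran from 0.04 for Cd300a to 0.42 for Cd48. Cd274 stood at 0.72. These values were not tested against expression.

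**Figure D4:**
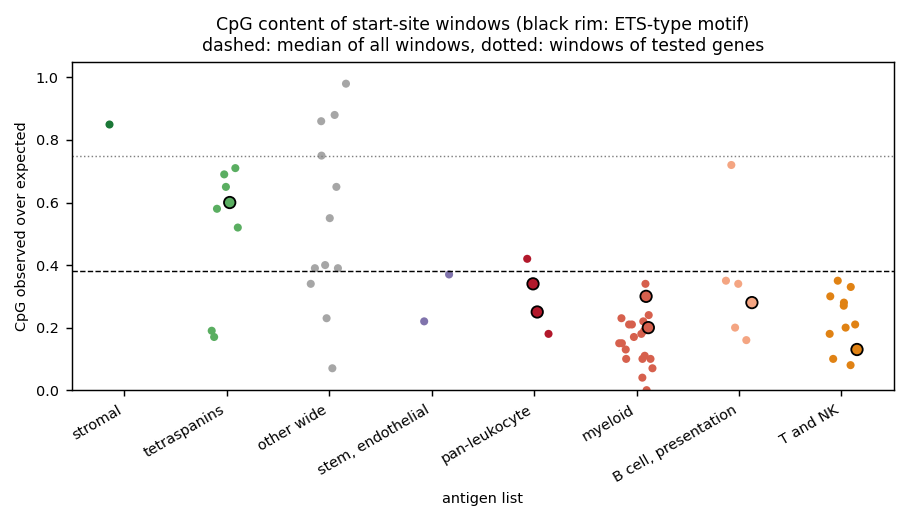
Ratio of observed to expected CpG (y axis) in the 300-base start-site windows of the genes in each of the 8 groups (x axis), a point per window, with a black rim where GAGGAAGT is present on either strand. Of the leukocyte windows, only those of Cd48 (0.42) and Cd274 (0.72) lie above the median of all windows (dashed, 0.38). The dotted line is the median of the windows of all tested genes, 0.75.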

How the data were processed

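RNA of 6 sorted marrow fractions (3 Grem1+, 3 Grem1-) was amplified and hybridised to Affymetrix arrays, 1 array per fraction. The deposited values are log2 expression per probe set, made by the authors with GCRMA per the submitters' processing notes. No version or settings were stated in the sources used here. The log2 scale was inferred from the range of values. Probe sets were named from the platform annotation, of which 34945 of 45101 had 1 symbol. The filter kept probe sets above log2 4 on at least 3 of 6 arrays, and the one with the highest mean stood for its gene, which left 10151 genes. Differences (Grem1+ minus Grem1-) were fitted across all of these genes with limma 3.58.1 in R 4.3.3, two-sided, the mouse as a block, with Benjamini-Hochberg adjustment of p-values. The pairing comes from the series design text, by which both fractions are from the same mice, with the title's replicate number as the mouse. Deviations of same-numbered arrays from their group means correlated at 0.014, 0.074 and 0.046. Residual degrees of freedom were 2 and prior ones 2.1, and precision is limited by having only 6 arrays. A called gene with its lower fraction dim on all arrays is given as a bound against log2 4. The code was tested on simulated data.

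The members, groups and lists were chosen with earlier results of these data known, so no p-value was computed over a list. The naming rule took every stromal antigen and widely expressed tetraspanin, and in each other group up to 5 called genes per direction. Other genes were named after their values were seen. RefSeq tables (GRCm38.p6) gave the promoter windows and gene neighbourhoods. Alternatives changed the block, filter, probe set choice, normalization, dim values, variance prior and mice singly, and the block together with a left-out mouse. No protein sequences were used here.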

Additional observations from a re-analysis of the deposited data

Results flagged for a closer look

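Cd27 was left out of all comparisons by the filter on dim probe sets but carried a signal on part of the Grem1- arrays. It stood at 8.36 on the Grem1- array of mouse 2 and 6.30 on that of mouse 1, and at 3.35 on that of mouse 3. The Grem1+ arrays read 2.98, 3.09 and 2.91.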

How the results depend on the processing

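Of 18 called genes, 8 passed under each of 10 alternatives other than leaving out a mouse, namely Cd109, Cd9, Cd300a, Cd300ld, Cd48, Cd52, Cd69 and Cd84. Without the replicate block the calls were 4 higher and 19 lower, with Cd276, Cd53, Cd74, Cd86 and Cd244a added and 0 of the 18 lost. Leaving out a mouse gave 0 to 2 higher and 0 to 12 lower genes, and 0 to 10 lower in the leukocyte groups, the lowest values with the block kept and the highest without it. Without the filter on dim probe sets 7 genes were lower, all 7 in the leukocyte groups, and medians were -0.44 for the leukocyte groups, -0.14 for T and NK, -0.49 for B cell and -0.43 for myeloid antigens, as 83 genes entered in place of 50. With the stricter filter (log2 6), which tested 27, medians were -3.37 for the leukocyte groups, -4.44 for myeloid, -2.03 for B cell, -5.94 for stem cell and endothelial, 5.30 for stromal antigens and 0.61 for the 4 non-leukocyte groups. The stem cell and endothelial value is that of 1 gene, Cd93, and the stromal value that of 1 gene, Cd109. The B cell median rests on 3 genes and the myeloid one on 6. The other widely expressed antigens had a median of -0.54 with the mean of probe sets and -0.83 both with the most variable probe set and without shared ones, and the tetraspanins 0.65 without shared ones. Leaving out a mouse moved the medians to between -2.14 and -1.03 for stem cell and endothelial, between -1.79 and -0.84 for T and NK and between -3.02 and -2.22 for myeloid antigens. Cd151 reversed to -0.37 without shared probe sets, and Cd248, with a range of -0.32 to 0.73 over left-out mice, reversed without mouse 2. Cd164 reversed to -0.54 with the mean of probe sets and -1.68 with the most variable one. Cd99, at about 0 throughout, reversed to 0.02 with quantile normalization and ranged from -0.03 to 0.02 over left-out mice. The filter settings changed which genes were tested, and Cd151 and Cd164 reversed when other probe sets stood for them. Beyond that, the cause of these shifts was not tested. Probe sets near log2 4 limit what can be read of Cd276, Cd34 and Cd248.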
